A study of Mus musculus with 9 samples.

Results

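The 544 genes described here are the protein-coding genes of human chromosome 3 with a mean of at least 100 raw counts over 9 RNA-seq libraries of Caki cells, out of 1076 protein-coding genes of that chromosome and 58735 genes in the deposited table. They were divided at 80 Mb of gene start into 252 lower genes, with starts from 3126916 to 78597240, and 292 upper genes, with starts from 81489699 to 197960200, and the 2 parts were compared within each library. A further 39 chromosome 3 genes above the count minimum, named in the rule one by one or by family (carriers of the SLC family, respiratory chain subunits, integrins and claudins among them), were left out. The members were chosen by position and, of measured values, by the mean raw count alone, and the division at 80 Mb was proposed with earlier results of these data known, so differences between the parts are given as descriptions without a test. At the count minimum PRRT3 and ZIC1, each with a mean of 99.8 counts, fell outside, and CAMK1 with 101 and FGF12 with 103 counts fell inside. At the division the last lower genes were PPP4R2, ZNF717 and ROBO1, and the first upper genes were GBE1, CHMP2B and CGGBP1.

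Caki cells are a cultured line from a kidney tumour of the clear cell type. They held either an empty retroviral vector (MX), a retroviral vector for unmutated YAP1 (YAP1), or one for YAP1-S127A, in which a serine is replaced by alanine and which the labels describe as constitutively active. All 3 groups were selected with G418 and held 3 libraries each. The labels name neither clones nor separate cultures, so p-values reflect the scatter among these libraries alone, possibly a technical one, and they give the mouse as organism although the table lists human Ensembl genes, as which the values are read here.

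Loss of the short arm of chromosome 3 is the hallmark of clear cell renal carcinoma. It removes a copy of VHL, the ubiquitin ligase subunit that targets hypoxia-inducible factors, together with the chromatin genes PBRM1, BAP1 and SETD2. The long arm carries the oncogenes PIK3CA, PRKCI and ECT2 and is often gained in squamous carcinomas. YAP1 is a transcriptional coactivator that works with TEAD factors in the Hippo pathway, and phosphorylation of that serine by LATS kinases holds it in the cytoplasm. The centromere lies above 80 Mb, so the lower genes are all on the short arm, and the first few upper genes are on it too.

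Total counts ran from 15789722 to 24811150 per library. Levels are given in CPM, counts scaled to library size. Library sizes were adjusted by TMM for YAP1 and the chromosome 3 genes, and were the total counts for the markers of this paragraph. YAP1 itself, which lies on another chromosome, stood at 91.1 to 108 CPM in MX libraries. It stood at 1003 to 1519 CPM in YAP1 and 631 to 741 CPM in YAP1-S127A libraries. Mitochondrial genes took up to 6.60% of counts in MX and 3.50% to 11.4% in YAP1 libraries, and 29.6%, 7.40% and 21.2% in YAP1-S127A replicates 1, 2 and 3. MX replicate 1 had 25491 genes detected, against 21568 to 23156 in the other libraries. Of 11 kidney and renal carcinoma markers, which summed to 4519 to 7731 CPM, PAX8, KRT8, KRT18 and VIM were high, whereas PAX2 did not exceed 0.05 CPM and the clear cell marker CA9 stayed at 0.00 to 1.01 CPM. The 5 leukocyte markers summed to 0.286 to 1.49 CPM, with CD3E at 0 in all libraries, the 4 endothelial markers to 0.604 to 2.02 CPM, and HBA1 and HBA2 were at 0. The 5 fibroblast markers summed to 32.8 to 37.0 CPM in MX, 29.0 to 31.9 in YAP1 and 35.6 to 72.0 in YAP1-S127A libraries, mostly PDGFRB, with PDGFRA, DCN and THY1 at 1.05 CPM or less. The matrix proteoglycan gene LUM, the fifth of them, stood at 0.645, 1.36 and 0.785 CPM in MX, 2.59, 2.97 and 2.27 in YAP1 and 5.41, 12.4 and 8.36 in YAP1-S127A libraries, so that its groups did not overlap. The fibroblast sum and the mitochondrial share both reached their highest values in YAP1-S127A libraries, and their part in the results below was not tested. In bulk RNA, fewer cells of a type and less RNA per cell cannot be told apart.

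The upper genes of chromosome 3 stood higher, relative to the lower genes, in cells with YAP1-S127A than in cells with the empty vector. With TMM scaling the upper genes were higher and the lower genes hardly moved, and with scaling by total counts both were lower. For each library, each gene's log2 CPM was set against its own mean over the 9 libraries, and the median of these deviations was taken over each part. The upper median was -0.02, -0.13 and -0.08 in MX replicates 1 to 3, -0.04, 0.04 and 0.03 in YAP1, and 0.11, 0.05 and 0.09 in YAP1-S127A. All 3 YAP1-S127A libraries lay above all MX libraries, and the YAP1 libraries overlapped MX and lay below YAP1-S127A. The lower median was -0.01, -0.02 and 0.02 in MX, 0.02, 0.02 and 0.02 in YAP1, and -0.02, 0.03 and 0.01 in YAP1-S127A, with MX and YAP1-S127A overlapping. Between group means the upper genes differed by 0.16 on the log2 scale, or 11.9%, for YAP1-S127A against MX, by 0.09 for YAP1 against MX and by 0.07 between the constructs. The lower genes differed by 0.01, 0.03 and -0.01. Both comparisons against MX share the same 3 MX libraries.

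**Figure D1:**
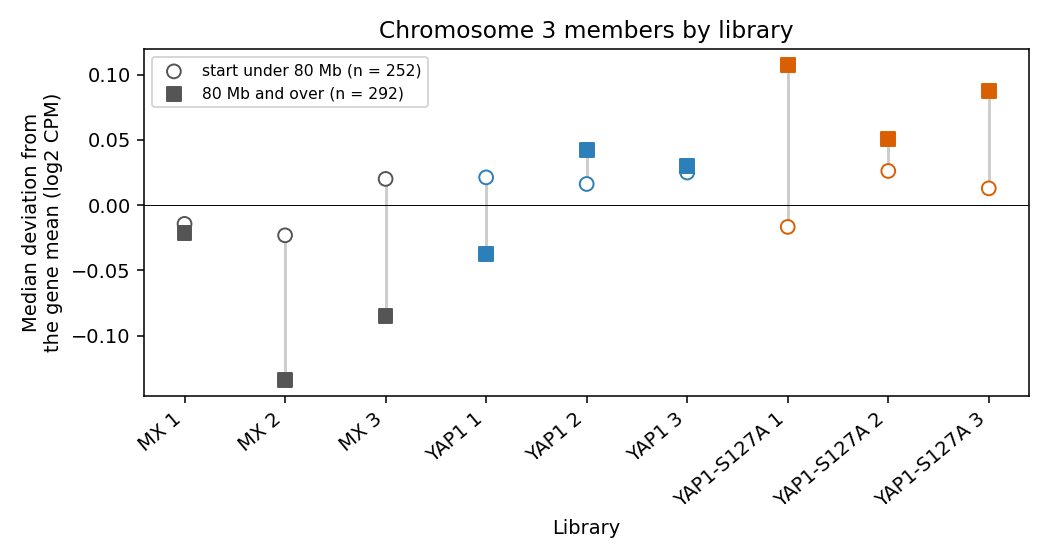
Median deviation of log2 CPM from each gene's own mean (vertical axis, log2 units) in each of the 9 libraries (horizontal axis), with open circles for the 252 genes that start under 80 Mb, filled squares for the 292 genes at 80 Mb and over, and a line joining the 2 values of a library. The upper medians lie at -0.13 to -0.02 in MX and at 0.05 to 0.11 in YAP1-S127A libraries with TMM scaling, an order of the group means that turns around with scaling by total counts, and the lower medians stay within 0.03 of 0.

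Subtracting the upper from the lower median within a library removes any scaling that acts on all genes alike. The difference was 0.01, 0.11 and 0.10 in MX (0.07 ± 0.06, SD, n = 3), 0.06, -0.03 and -0.00 in YAP1 (0.01 ± 0.04, SD, n = 3) and -0.12, -0.02 and -0.07 in YAP1-S127A (-0.07 ± 0.05, SD, n = 3). MX and YAP1-S127A libraries did not overlap, and MX replicate 1 lay closest to the other groups. The YAP1 libraries overlapped both other groups. Against MX the difference changed by -0.15 with YAP1-S127A and by -0.07 with YAP1, and between the constructs by -0.08. Without MX replicate 1 the change with YAP1-S127A was -0.20. With YAP1-S127A replicate 2 alone, the library of that group with the lowest mitochondrial share, it was -0.10. Whole other chromosomes also differed between replicates. With TMM scaling, the median deviation of chromosome 19 was -0.18, 0.14 and 0.11 in MX replicates 1 to 3. It was -0.14, 0.05 and 0.08 for chromosome 22 and 0.09, -0.07 and -0.04 for chromosome 13. Chromosome 18 stood at 0.03, -0.12 and -0.07, and chromosome 6 varied less, at -0.15, -0.13 and -0.12. Base composition was not checked, and the part of such differences in these results was not tested.

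The share of upper genes above their own mean gave the same order of groups. It comes from the same deviations with TMM scaling as the medians, so it is no separate evidence. It was 47.3%, 24.3% and 25.3% in MX, 43.2%, 63.0% and 57.2% in YAP1 and 73.3%, 59.9% and 63.0% in YAP1-S127A libraries. All YAP1-S127A libraries exceeded all MX libraries, and those of YAP1 overlapped both groups. The 544 genes together took 3.92%, 3.68% and 3.72% of the counts outside mitochondrial genes in MX, 3.86%, 3.97% and 3.92% in YAP1 and 4.13%, 4.05% and 4.16% in YAP1-S127A libraries, where no library overlapped the other groups.

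The parts differed little in length, with a median of 5646.5 bases for lower and 5920.5 bases for upper genes, and the upper genes were more highly expressed, with a median log2 CPM of 5.14 against 4.62. Among genes above the members' median level, the change of the difference between parts with YAP1-S127A against MX was -0.20, and among those below it was -0.10. It was -0.17 among shorter and -0.14 among longer genes, so that the sign was shared by all 4 subsets, which were chosen after the data were seen. Among genes called in no comparison (215 lower and 202 upper) it was -0.08, and the groups then overlapped. With the division at 90 Mb in place of 80 Mb it was -0.14, and with the division at 60 Mb it was -0.12, where the groups also overlapped.

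Gene by gene and with TMM scaling, rises with YAP1-S127A were more frequent in the upper part than in the background. edgeR called 74 of 292 upper genes higher and 15 lower than in MX, or 25.3% and 5.14%, and 21 of 252 lower genes higher and 15 lower, or 8.33% and 5.95%. Of all 15492 genes tested, 9.53% were called higher and 8.84% lower, 18.4% in all, and of 9765 protein-coding genes on other chromosomes with the same count minimum 10.3% and 9.34%. The lower part's share of rises was thus near the background and the upper part's above it, and both parts had a smaller share of falls. With scaling by total counts, which moved the median log2 fold change of all genes to -0.28, the calls were 11 higher and 36 lower among upper genes and 8 higher and 62 lower among lower genes. Rises then made up 16.2% of the members called and 13.7% of the 4447 genes called in all, so the upper part's excess of rises did not hold there. With that scaling the upper genes' change was -0.12 and the lower genes' -0.26, while the difference between the parts is by construction not moved by scaling. With YAP1-S127A replicate 2 alone the difference between the parts changed by -0.10, against -0.15 with all libraries.

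The called changes were moderate. Log2 fold changes of the 74 upper genes that rose ran from 0.32 to 1.45 with a median of 0.51, a 1.43-fold change, and 2 of them passed 2-fold. In 71 of the 74 the YAP1-S127A and MX libraries did not overlap. The 21 lower genes that rose ran from 0.41 to 1.62, and 3 of them passed 2-fold. Falls ran from -2.29 to -0.40 among upper and from -1.66 to -0.46 among lower genes. Over all genes of a part, called or not, the median log2 fold change was 0.18 among upper and 0.00 among lower genes, against -0.00 over all tested genes. Fold changes were above 0 for 74.0% of upper, 50% of lower and 49.5% of all tested genes. YAP1-S127A libraries lay above MX libraries without overlap for 107 upper genes (36.6%) and 41 lower genes (16.3%), where 16.7% of all tested genes did so.

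**Figure D2:**
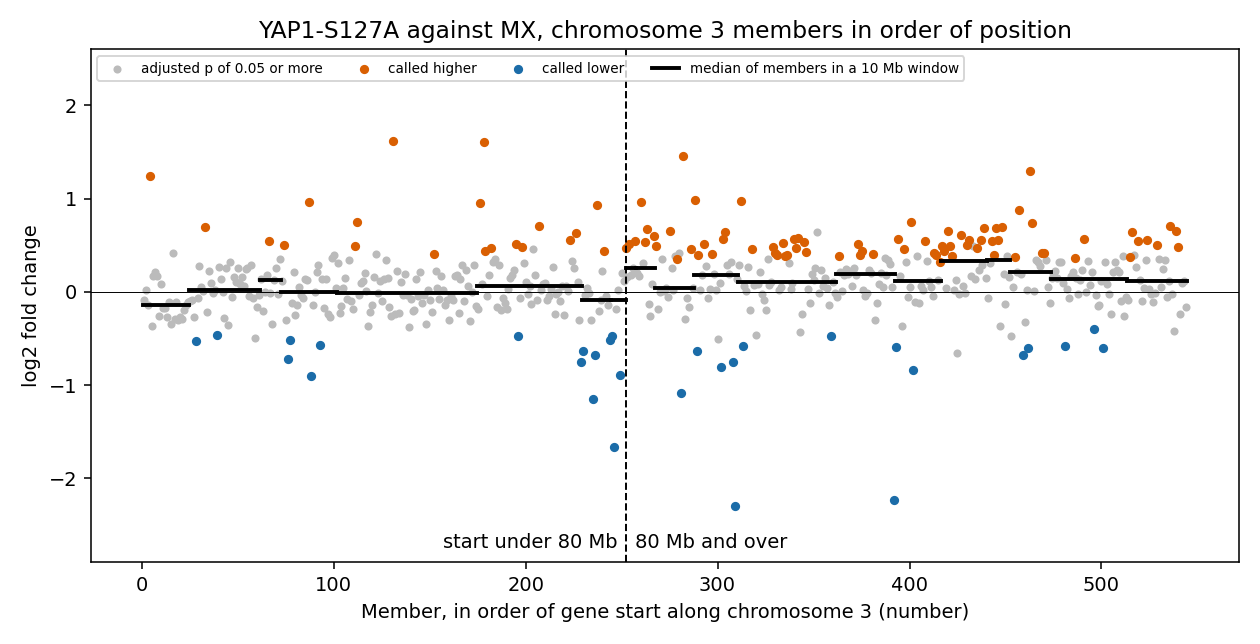
Log2 fold change of YAP1-S127A against MX with TMM scaling (vertical axis) for the 544 genes in order of start along chromosome 3 (horizontal axis, rank), with called genes in orange and blue, the rest in grey, black bars for the median of each 10 Mb window and a dashed line between the 252 lower and the 292 upper genes. All window medians to the right of the dashed line lie above 0, whereas those to its left lie on both sides of it, and scaling by total counts moves all points down.

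Along the chromosome the shift was spread over the whole upper part rather than held in 1 segment. Windows of 10 Mb with at least 5 of the genes were compared with TMM scaling. The median deviation was higher with YAP1-S127A than with MX in 12 of 12 upper windows, by 0.09 to 0.35. It was higher in 4 of 8 lower windows and in 57.1% of the windows on other autosomes. Scaling by total counts, which moved the median log2 fold change of all genes to -0.28, shifts all windows of a library alike. Signs and overlaps of windows, here and in the next paragraph, are therefore those with TMM scaling and depend on it. Groups did not overlap in 10 of the 12 upper windows and in none of the lower ones in that direction, where 20.1% of 259 windows on other autosomes did so. The window from 90 to 100 Mb differed most, by 0.35, with -0.03, -0.41 and -0.10 in MX and 0.23, 0.14 and 0.15 in YAP1-S127A libraries, and 4 of its 10 genes were called higher. From 160 to 170 Mb, the difference was 0.28 and 5 of 12 genes rose. From 150 to 160 Mb, 11 of 24 genes rose, among them the secretory gene SSR3 and the pentraxin PTX3, and none fell (edgeR). That window stood at -0.10, -0.15 and -0.11 in MX, at -0.09, 0.05 and -0.00 in YAP1 and at 0.20, -0.00 and 0.21 in YAP1-S127A libraries, so that YAP1-S127A replicate 2 lay near the YAP1 libraries there.

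The upper windows with the smallest differences were those from 180 to 190 Mb, with 0.09, where 2 of 40 genes rose and 3 fell, and from 140 to 150 Mb, with 0.13, where the groups overlapped and 7 of 24 genes rose. From 190 Mb to the end, 8 of 31 genes rose. The lower windows differed among themselves. From 40 to 50 Mb, the gene-dense stretch that holds SETD2 and RHOA, 4 of 73 genes rose, and from 50 to 60 Mb, which holds PBRM1, BAP1 and the semaphorins SEMA3B and SEMA3F, 9 of 55 rose and 2 fell. From 60 to 80 Mb the direction was the opposite. The median deviation there changed with YAP1-S127A by -0.12 from 60 to 70 Mb, where the groups did not overlap, and by -0.13 from 70 to 80 Mb, where they did. In the former 2 of 15 genes rose and 4 fell, and in the latter 1 of 8 rose and 3 fell. With YAP1 against MX all 12 upper windows were above 0, by 0.01 to 0.18, and groups did not overlap in 3 of them, where 15.4% of windows on other autosomes did so and 63.3% were above 0. Of the 8 lower windows 6 were above 0 and 2 did not overlap in that direction, the same 25% as in the upper part. Between the constructs 12 of 12 upper windows were above 0 and 4 did not overlap, and 2 of 8 lower windows were above 0 and 1 did not overlap, against 47.1% and 9.27% on other autosomes.

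**Figure D3:**
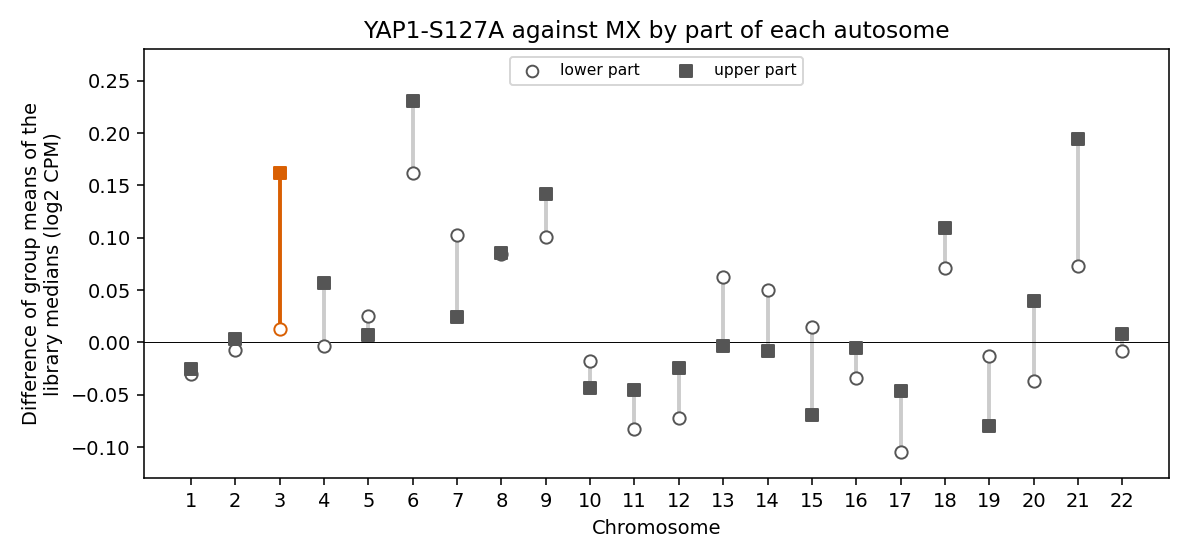
Difference between the group means of library medians for YAP1-S127A against MX (vertical axis, log2 CPM with TMM scaling) for the lower (open circles) and upper (filled squares) part of each autosome (horizontal axis), divided at 80 Mb for chromosome 3, in orange, and at the median gene start for the others. The gap between the parts is widest for chromosome 3, where the upper part stands at 0.16 and the lower at 0.01, and scaling by total counts moves all points down alike.

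Other autosomes were divided at the median start of their protein-coding genes. They kept all such genes past the count minimum, without exclusions by name or family, and were otherwise treated the same way. Their lower minus upper difference changed with YAP1-S127A against MX by -0.12 to 0.08 over 21 autosomes, with a median size of 0.05, and groups did not overlap in 5 of them. Chromosome 3, with -0.15, had the largest size of the 22, and chromosome 21 with -0.12 was next. With its left-out genes put back, chromosome 3 changed by -0.16. Its division at 80 Mb was chosen with results known and theirs was not, so the rank is a description only. The upper part of chromosome 3 alone was not the highest part. The upper part of chromosome 6 changed by 0.23 and its lower part by 0.16, and the upper part of chromosome 21 by 0.19. For YAP1 against MX chromosome 3 ranked 4 of 22 by the size of this difference, and between the constructs it ranked 1.

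With wild-type YAP1 few of the genes changed. edgeR called 12 upper genes higher and 5 lower than in MX (4.11% and 1.71%), and 8 lower genes higher and 4 lower (3.17% and 1.59%), where 3.23% of all tested genes were called higher and 3.58% lower, 6.81% in all, and 3.74% and 3.53% of the comparable genes on other chromosomes. The shares of rises were near the background in both parts. With scaling by total counts the calls were 3 higher and 6 lower among upper genes and 5 higher and 3 lower among lower genes, with the median of all genes at -0.08. Rises then made up 47.1% of the members called and 31.4% of all genes called. Without YAP1 replicate 3 the members called fell from 29 to 14, and all genes called fell from 1055 to 601. Over all upper genes the median log2 fold change was 0.09, with 70.9% above 0. Between the constructs 4 upper and 1 lower gene were called higher in YAP1-S127A and 2 and 2 lower, where 1.13% of all tested genes were called higher and 0.839% lower, 1.97% in all, and 1.12% and 1.03% of the comparable genes on other chromosomes. With scaling by total counts these were 1 and 1 higher and 6 and 8 lower, with the median of all genes at -0.20. Rises were then 12.5% of the members called and 18.3% of the 616 genes called. Without MX replicate 1 the members called rose from 9 to 19 and all genes called from 305 to 465. Without YAP1 replicate 3 the members called were 2, where the lowest count of all genes over fits without 1 library was 126.

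**Figure D4:**
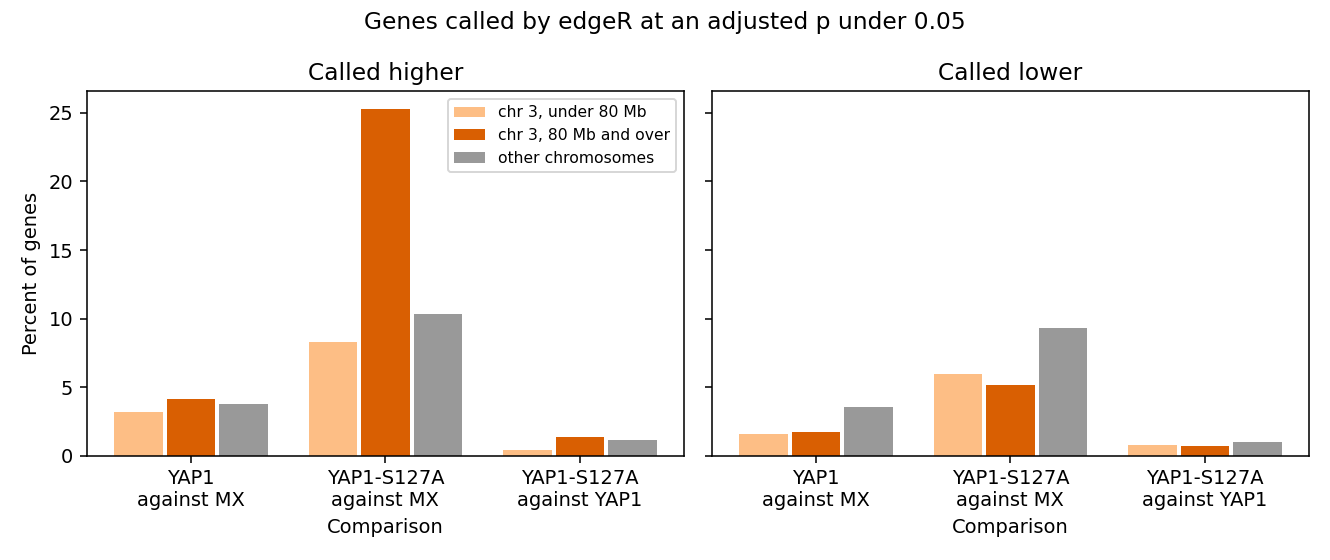
Percent of genes called higher (left) and lower (right) by edgeR with TMM scaling at an adjusted p under 0.05 (vertical axis, percent) in the 3 comparisons (horizontal axis), for the 252 lower genes of chromosome 3, the 292 upper genes and 9765 protein-coding genes of other chromosomes with the same count minimum. The upper genes stand out for rises with YAP1-S127A against MX at 25.3%, against 8.33% and 10.3%, a majority of rises over falls that turns around with scaling by total counts.

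ALCAM, a cell adhesion molecule of the immunoglobulin superfamily (ENSG00000170017, chromosome 3 from 105366909 to 105576900, plus strand), had the largest rise of the upper genes. ALCAM stood at 101, 98.5 and 83.6 CPM in MX replicates 1 to 3, at 159.8, 194 and 177 CPM in YAP1 and at 234, 259 and 282 CPM in YAP1-S127A. The 3 groups did not overlap, and the level was highest with YAP1-S127A. The log2 fold change was 0.91 (SE 0.12) for YAP1 (adjusted p = 7.47e-05) and 1.45 (SE 0.12) for YAP1-S127A against MX (adjusted p = 7.64e-08). Between the constructs it was 0.55 (SE 0.12) (adjusted p = 0.0198), a call that did not hold when replicate 1 or 3 of YAP1, or 2 or 3 of YAP1-S127A, was left out, where the adjusted p reached 0.148.

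NCEH1, a cholesterol ester hydrolase (ENSG00000144959, chromosome 3 from 172630249 to 172711218, minus strand), showed the same order. NCEH1 levels were 148, 157 and 132 CPM in MX, 234, 269 and 254 CPM in YAP1 and 321, 342 and 409 CPM in YAP1-S127A libraries. Again no group overlapped another. Against MX the log2 fold change was 0.79 (SE 0.12) with YAP1 (adjusted p = 0.000331) and 1.30 (SE 0.12) with YAP1-S127A (adjusted p = 3.74e-07). The difference between the constructs was 0.50 (adjusted p = 0.0383), and it was lost without MX replicate 3 or any 1 library of the constructs other than YAP1-S127A replicate 1 (adjusted p up to 0.27). ECT2, the guanine nucleotide exchange factor that activates RhoA in cytokinesis, lies close by (ENSG00000114346, chromosome 3 from 172750682 to 172821474, plus strand). ECT2 stood at 90.1, 77.7 and 83.4 CPM in MX replicates 1 to 3, at 108, 112 and 112 CPM in YAP1 and at 144, 133 and 144 CPM in YAP1-S127A. The groups did not overlap. Its log2 fold change was 0.74 (SE 0.11) with YAP1-S127A (adjusted p = 6.33e-05) and 0.40 with YAP1 (adjusted p = 0.0276), the latter lost without any 1 MX or YAP1 library other than MX replicate 1 (adjusted p up to 0.111) and with only the groups compared in the fit. Scaling by total counts also ended this call and those of ALCAM and NCEH1 between the constructs.

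FSTL1, a secreted follistatin-like glycoprotein (ENSG00000163430, chromosome 3 from 120392293 to 120451253, minus strand), was among the most abundant genes that rose. FSTL1 levels were 602, 663 and 552 CPM in MX, 799.6, 1009 and 843 CPM in YAP1 and 988, 1354 and 1231 CPM in YAP1-S127A libraries. MX libraries lay below all others, and those of YAP1 and YAP1-S127A overlapped. Its log2 fold change was 0.98 (SE 0.14) with YAP1-S127A (adjusted p = 7.41e-05) and 0.54 with YAP1 (adjusted p = 0.024), and the latter call was lost without MX replicate 3, YAP1 replicate 2 or YAP1 replicate 3 (adjusted p up to 0.157). RPL22L1, a paralog of the ribosomal protein RPL22 (ENSG00000163584, chromosome 3 from 170864875 to 170870483, minus strand), rose with YAP1-S127A. RPL22L1 stood at 38.2, 42.6 and 34.2 CPM in MX replicates 1 to 3, at 46.4, 47.03 and 42.01 CPM in YAP1 and at 65.9, 59.9 and 85.7 CPM in YAP1-S127A. MX and YAP1 overlapped, and all YAP1-S127A libraries lay above both. The log2 fold change was 0.88 (SE 0.14) against MX (adjusted p = 0.000108) and 0.64 against YAP1 (adjusted p = 0.0132), the latter lost without any 1 YAP1 library or YAP1-S127A replicate 3 (adjusted p up to 0.139). This call and that of FSTL1 with YAP1 were also lost with scaling by total counts. Against MX, NECTIN3, an adherens junction adhesion molecule, rose by 0.99 on the log2 scale and the cation channel gene TRPC1 by 0.75 with YAP1-S127A (adjusted p = 0.000125 and 0.00325).

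MELTF, a membrane-anchored iron-binding protein related to transferrin (ENSG00000163975, chromosome 3 from 196988621 to 197029816, minus strand), had the largest rise between the constructs. MELTF levels were 15.4, 23.03 and 24.1 CPM in MX, 15.4, 18.3 and 17.5 CPM in YAP1 and 33.02, 38.3 and 30.4 CPM in YAP1-S127A libraries. MX and YAP1 libraries overlapped, and the YAP1-S127A libraries stood above both. The difference was 0.99 (SE 0.16) against YAP1 (adjusted p = 0.0019) and 0.71 against MX (adjusted p = 0.00342), while YAP1 differed from MX by -0.29 (adjusted p = 0.344).

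**Figure D5:**
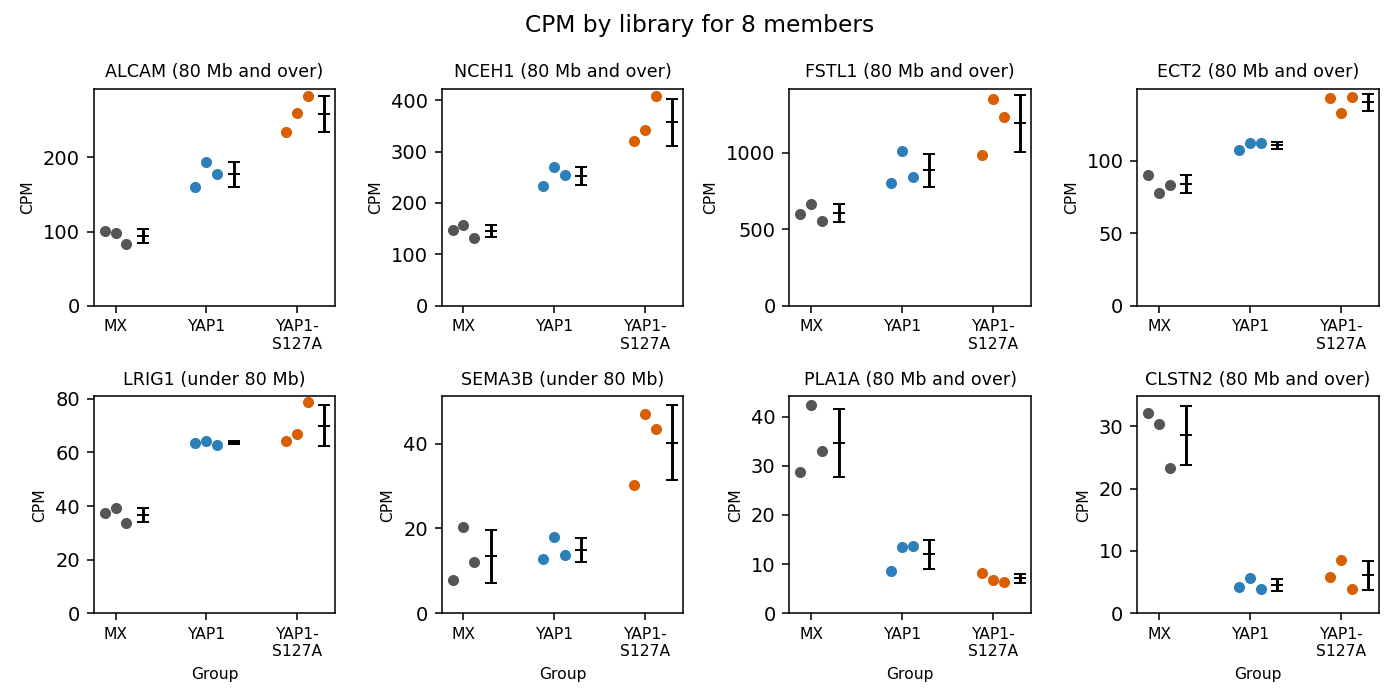
CPM (vertical axes, from 0) in each library for 8 of the genes, with 3 points per group and, beside them, the mean with its SD over 3 libraries. ALCAM, NCEH1, FSTL1, ECT2 and SEMA3B have their highest means in YAP1-S127A, LRIG1 is higher with both constructs than in MX, and PLA1A and CLSTN2 have their highest means in MX.

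The largest falls of the upper part ran against its general direction. PLA1A, a phosphatidylserine-specific phospholipase (ENSG00000144837, chromosome 3 from 119597842 to 119629811, plus strand), fell with both constructs. PLA1A stood at 28.7, 42.3 and 33.02 CPM in MX replicates 1 to 3, at 8.65, 13.5 and 13.7 CPM in YAP1 and at 8.16, 6.79 and 6.36 CPM in YAP1-S127A. No 2 groups overlapped. The log2 fold change was -1.53 (SE 0.18) with YAP1 (adjusted p = 1.54e-05) and -2.29 (SE 0.19) with YAP1-S127A (adjusted p = 5.43e-08). CLSTN2, a synaptic calsyntenin of the cadherin superfamily (ENSG00000158258, chromosome 3 from 139935185 to 140577397, plus strand), fell as far. CLSTN2 levels were 32.2, 30.3 and 23.2 CPM in MX, 4.20, 5.72 and 3.86 CPM in YAP1 and 5.87, 8.56 and 3.94 CPM in YAP1-S127A libraries. MX lay above both construct groups, which overlapped. It changed by -2.64 (SE 0.23) with YAP1 (adjusted p = 1.01e-06) and -2.23 (SE 0.22) with YAP1-S127A (adjusted p = 1.22e-06). ZPLD1, a zona pellucida domain protein, fell by 1.08 on the log2 scale with YAP1-S127A (adjusted p = 1.48e-05). The interleukin receptor subunit gene IL20RB was -0.74 with YAP1 against MX (adjusted p = 0.00223) and -0.30 with YAP1-S127A (adjusted p = 0.149).

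Among the lower genes LRIG1, a membrane protein that restrains ERBB receptor signalling (ENSG00000144749, chromosome 3 from 66378797 to 66501263, minus strand), rose with both constructs. LRIG1 stood at 37.3, 39.1 and 33.8 CPM in MX replicates 1 to 3, at 63.6, 64.2 and 62.9 CPM in YAP1 and at 64.3, 66.98 and 78.6 CPM in YAP1-S127A. MX lay below both construct groups, which did not overlap each other by a small margin. The log2 fold change was 0.79 (SE 0.11) with YAP1 (adjusted p = 0.000163), 0.93 (SE 0.11) with YAP1-S127A (adjusted p = 9.66e-06) and 0.14 between the constructs (adjusted p = 0.68). LRIG1 overlaps SLC25A26 on the other strand, and no source used here gives the strand setting of the counting, so reads of the 2 genes cannot be told apart with certainty. This holds for 184 of the 544 genes, which overlap a protein-coding gene on the other strand, and 224 overlap one on either strand. LRRN1, a neuronal leucine-rich repeat protein near the start of the chromosome, rose by 0.90 with YAP1 and 1.25 with YAP1-S127A (adjusted p = 0.0044 and 7.95e-05), and STAC, an adaptor of voltage-gated calcium channels, by 0.78 and 0.96 (adjusted p = 0.00221 and 0.000116). HIGD1A, a hypoxia-inducible mitochondrial protein, rose by 0.75 with YAP1-S127A (adjusted p = 0.000258).

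OXTR, the oxytocin receptor gene (ENSG00000180914, chromosome 3 from 8750408 to 8769628, minus strand), was lower with wild-type YAP1 than in either other group. OXTR levels were 81.5, 80.9 and 80.03 CPM in MX, 41.8, 51.3 and 49.6 CPM in YAP1 and 64.1, 64.6 and 73.7 CPM in YAP1-S127A libraries. No 2 groups overlapped. The log2 fold change was -0.76 (SE 0.11) with YAP1 (adjusted p = 0.000234) and -0.26 with YAP1-S127A against MX (adjusted p = 0.124). The construct difference of 0.50 (adjusted p = 0.024) was lost without any 1 YAP1 library or YAP1-S127A replicate 2 or 3 (adjusted p up to 0.177). TRANK1, which encodes a large protein with tetratricopeptide and ankyrin repeats, was lower with YAP1-S127A than in either other group. TRANK1 stood at 14.9, 12.8 and 12.9 CPM in MX replicates 1 to 3, at 12.3, 13.5 and 12.6 CPM in YAP1 and at 7.93, 7.04 and 6.83 CPM in YAP1-S127A. MX and YAP1 overlapped, and the YAP1-S127A libraries lay below both. It changed by -0.90 against MX (adjusted p = 0.000209) and -0.82 against YAP1 (adjusted p = 0.0042). ADAMTS9, a secreted metalloprotease that cleaves proteoglycans, was at -1.14 with YAP1-S127A against MX (adjusted p = 0.000343), and GXYLT2, a xylosyltransferase that acts on Notch, at -0.89 (adjusted p = 0.000455), where GXYLT2 overlaps its neighbour PPP4R2 in the table. Both lie between 60 and 80 Mb, as do the junction scaffold gene MAGI1 at -0.68, a call lost without YAP1-S127A replicate 3 (adjusted p = 0.0731), and the melanocyte-lineage factor gene MITF at -0.51 (adjusted p = 0.00745). MITF was also lower with YAP1, at -0.45 (adjusted p = 0.0343), which did not hold when any of MX replicates 1 and 3, YAP1 replicates 2 and 3 and YAP1-S127A replicate 3 was left out (adjusted p up to 0.162), nor with no count filter or only the groups compared in the fit. Scaling by total counts ended this MITF call too, and that of OXTR between the constructs.

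The renal carcinoma suppressor genes of the short arm did not pass edgeR's test with TMM scaling and all libraries. VHL (chromosome 3 from 10141008 to 10152220, plus strand) was measured as transcript level only. VHL levels were 34.2, 19.7 and 26.1 CPM in MX, 42.4, 25.8 and 26.3 CPM in YAP1 and 22.6, 22.3 and 21.7 CPM in YAP1-S127A libraries. MX overlapped both construct groups, and the YAP1 libraries lay above those of YAP1-S127A. Its log2 fold change was -0.27 (SE 0.20) with YAP1-S127A (adjusted p = 0.389) and 0.23 (SE 0.20) with YAP1 (adjusted p = 0.58). PBRM1, a subunit of the PBAF chromatin remodeller, stood at 0.02 with YAP1-S127A (adjusted p = 0.944), BAP1, a nuclear deubiquitinase, at 0.18 (adjusted p = 0.298) and SETD2, a histone H3 methyltransferase, at -0.23 (adjusted p = 0.362). SETD2 did pass as lower with scaling by total counts (edgeR adjusted p = 0.0105) and with YAP1-S127A replicate 2 alone. In all 3 comparisons edgeR, DESeq2 and limma-voom called 0 of the 4, and at an unadjusted p under 0.05 the counts were 0 for both comparisons against MX and 1 between the constructs with each tool. All 4 were expressed in every library, BAP1 at 71.5 to 95.6 CPM, SETD2 at 27.97 to 54.4, VHL at 19.7 to 42.4 and PBRM1 at 14.4 to 22.1 CPM. Of other short-arm genes, RHOA, a small GTPase that acts on the actin cytoskeleton, stood at 0.18 (adjusted p = 0.312) and CTNNB1, the gene of beta-catenin, at 0.05 (adjusted p = 0.833) with YAP1-S127A against MX.

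Of 12 genes of the tumour suppressor cluster at 3p21.3, 4 rose with YAP1-S127A against MX, with a median log2 fold change of 0.25 over the 12, where the median of all lower genes was 0.00. Rises made up 8.33% of all lower and 9.53% of all tested genes. SEMA3B, a secreted semaphorin (ENSG00000012171, chromosome 3 from 50267558 to 50277546, plus strand), rose most. SEMA3B stood at 7.95, 20.3 and 12.2 CPM in MX replicates 1 to 3, at 12.8, 18.1 and 13.8 CPM in YAP1 and at 30.2, 47.1 and 43.3 CPM in YAP1-S127A. MX and YAP1 overlapped and YAP1-S127A lay above both, with wide spread within groups. The log2 fold change was 1.60 (SE 0.31) (adjusted p = 0.00593) against MX and 1.44 (SE 0.31) against YAP1 (adjusted p = 0.0534). Its neighbour SEMA3F rose by 0.96 against MX (adjusted p = 0.004), and RASSF1, a scaffold of the Hippo kinases, by 0.47 (adjusted p = 0.0113), lost without YAP1-S127A replicate 3 (adjusted p = 0.0523). IFRD2 was the fourth. With YAP1 none of the 12 was called by edgeR, DESeq2 or limma-voom, with 2, 1 and 2 of them at an unadjusted p under 0.05.

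Of 16 cancer genes of bands 3q26 to 3q28, 3 rose with YAP1-S127A, with a median of 0.27 over the 16, where the median of all upper genes was 0.18. These 3 compare with 25.3% of all upper genes and 9.53% of all tested genes called higher. Beside ECT2 these were PDCD10, an adaptor of the cerebral cavernous malformation complex, and PRKCI, the atypical protein kinase C iota. PDCD10 levels were 35.4, 36.5 and 38.1 CPM in MX, 40.8, 46.2 and 48.5 CPM in YAP1 and 58.8, 57.7 and 62.4 CPM in YAP1-S127A libraries. The 3 groups did not overlap. PDCD10 changed by 0.70 (SE 0.11) with YAP1-S127A (adjusted p = 0.00015). PRKCI changed by 0.37 (adjusted p = 0.0347), which was lost without any 1 library other than MX replicate 1 and YAP1 replicate 1 (adjusted p up to 0.138), with no count filter and with only the groups compared in the fit. PIK3CA, the catalytic subunit alpha of phosphoinositide 3-kinase, did not pass with all libraries. PIK3CA stood at 28.9, 18.1 and 25.5 CPM in MX replicates 1 to 3, at 25.7, 24.82 and 29.2 CPM in YAP1 and at 31.3, 30.8 and 29.3 CPM in YAP1-S127A. MX replicate 2 was the lowest library, and all YAP1-S127A libraries lay above all MX libraries. Its log2 fold change was 0.33 (SE 0.15) (adjusted p = 0.136), and without MX replicate 1 it passed (adjusted p = 0.0238).

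Of 23 genes of GTPase signalling, actin and adhesion, 8 rose and 1 fell with YAP1-S127A, with 6 of the rises among its 9 upper genes, where 9.53% of all tested genes and 25.3% of all upper genes rose and 8.84% of all tested genes fell. With YAP1, 4 rose, among them ALCAM, NECTIN3 and ARHGAP31, against 3.23% of all tested genes. NECTIN3 changed by 0.53 with YAP1 (adjusted p = 0.0421), lost without replicate 2 or 3 of MX or of YAP1 (adjusted p up to 0.211) and with a stricter count filter. ARHGAP31, a GTPase-activating protein for Rac1 and Cdc42, changed by 0.56 with YAP1 and 0.64 with YAP1-S127A (adjusted p = 0.0115 and 0.00194), the former lost without MX replicate 3 (adjusted p = 0.0722). With scaling by total counts neither NECTIN3 nor ARHGAP31 was called with YAP1. The receptor phosphatase gene PTPRG was the member that fell, at -0.63 (adjusted p = 0.0167), lost without MX replicate 1 or YAP1-S127A replicate 1 or 2 (adjusted p up to 0.0694).

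Of 24 genes of the secretory pathway and vesicle traffic, 7 rose with YAP1-S127A, 6 of them among the 16 upper genes, and the median was 0.21. The shares called higher were 9.53% over all tested and 25.3% over all upper genes. SSR3, a subunit of the translocon-associated complex that assists protein entry into the endoplasmic reticulum, was the clearest. SSR3 levels were 334, 353 and 317 CPM in MX, 367, 432 and 385 CPM in YAP1 and 486, 505 and 542 CPM in YAP1-S127A libraries. The 3 groups did not overlap. It changed by 0.61 (SE 0.12) (adjusted p = 0.00085). ARF4, a small GTPase of Golgi traffic and the 1 lower gene among the 7, changed by 0.56 (adjusted p = 0.00276), and CHMP2B, a subunit of the membrane-cutting ESCRT-III complex, by 0.51 (adjusted p = 0.0082). The other rises were SEC61A1, SRPRB, SEC22A and SNX4. SEC61A1, the pore of the endoplasmic reticulum translocon, was also one of the most abundant of the genes per length, at 165 CPM per kb in MX and 223 in YAP1-S127A, after RPL29, RPL24 and RPSA in MX with 265, 226 and 191. RPL29, RPL24 and RPSA, all components of the ribosome, had log2 fold changes of -0.06, 0.03 and 0.05 (adjusted p = 0.835, 0.924 and 0.863). These 4 genes were singled out after their values were seen.

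Of 23 genes of ribosomes and translation, 2 rose with YAP1-S127A, RPL22L1 and NMD3, the export adaptor of the large ribosomal subunit, a share near the 9.53% of all tested genes. Both lie among the 13 upper genes of the list, and 25.3% of all upper genes rose. NMD3 stood at 54.05, 55.01 and 51.1 CPM in MX replicates 1 to 3, at 60.2, 71.2 and 75.3 CPM in YAP1 and at 75.04, 75.03 and 85.9 CPM in YAP1-S127A. MX lay below both construct groups, and YAP1 replicate 3 lay within the YAP1-S127A range. NMD3, which overlaps B3GALNT1 in the table, changed by 0.56 (adjusted p = 0.00193). Of 23 ubiquitin, SUMO and proteasome genes, 12 of them upper, PSMD2 (upper) and UBA3 (lower) rose, also near that 9.53%. PSMD2, a subunit of the proteasome's regulatory particle, rose with both constructs. PSMD2 levels were 409, 425 and 490.0 CPM in MX, 651, 602 and 658 CPM in YAP1 and 636, 731 and 588 CPM in YAP1-S127A libraries. MX lay below both, and the constructs overlapped. Its log2 fold change was 0.53 with YAP1 (adjusted p = 0.0122; 0.0631 without YAP1 replicate 3, and also lost with scaling by total counts) and 0.56 with YAP1-S127A (adjusted p = 0.00338). UBA3, the catalytic subunit of the NEDD8 activating enzyme, changed by 0.44 (adjusted p = 0.0299), lost without MX replicate 3 or YAP1-S127A replicate 3 (adjusted p up to 0.212) and with only the groups compared in the fit.

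Genes of a list named secreted proteins and matrix, not all of which encode secreted proteins, moved in both directions. Of 9 genes, FSTL1, PTX3, LXN and TM4SF1 rose with YAP1-S127A and PCOLCE2, an enhancer of procollagen processing, fell, where 9.53% of all tested genes rose and 8.84% fell. The 4 rises and the 1 fall were among the 8 upper genes of the list, and of all upper genes 25.3% rose and 5.14% fell. PCOLCE2 stood at 13.9, 20.2 and 17.7 CPM in MX replicates 1 to 3, at 11.1, 14.3 and 11.5 CPM in YAP1 and at 10.1, 8.69 and 9.93 CPM in YAP1-S127A. MX and YAP1 overlapped and YAP1-S127A lay below both. It changed by -0.84 (SE 0.16) (adjusted p = 0.00111). LXN, a carboxypeptidase inhibitor, changed by 0.56 (adjusted p = 0.00713), lost without YAP1-S127A replicate 3 (adjusted p = 0.0583). PTX3, a soluble pattern recognition molecule, changed by 0.59 with YAP1 and 0.55 with YAP1-S127A (adjusted p = 0.0199 and 0.0133). The first PTX3 call was lost when replicate 1 or 3 of MX, or 2 or 3 of YAP1, was left out, and the second without YAP1-S127A replicate 3, with adjusted p up to 0.138 and 0.122.

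Of 24 genes of transcription and chromatin, 2 rose and 4 fell with YAP1-S127A, against 9.53% and 8.84% of all tested genes. PPARG, the nuclear receptor of adipocyte differentiation, rose. PPARG levels were 6.56, 9.49 and 9.66 CPM in MX, 11.2, 10.8 and 12.3 CPM in YAP1 and 14.3, 13.8 and 13.4 CPM in YAP1-S127A libraries. The 3 groups did not overlap. It changed by 0.70 (adjusted p = 0.00459). ZBTB38, a zinc finger protein that binds methylated DNA, is an upper gene that fell. ZBTB38 stood at 152, 103 and 125 CPM in MX replicates 1 to 3, at 113, 95.98 and 106 CPM in YAP1 and at 90.1, 77.8 and 84.9 CPM in YAP1-S127A. All YAP1-S127A libraries lay below all others, while MX and YAP1 overlapped. It changed by -0.59 (adjusted p = 0.00398), and CTDSPL, a phosphatase that acts on RNA polymerase II, by -0.57 (adjusted p = 0.00401). MITF and FOXP1 were the other falls, and NR1D2 the other rise. Of 18 genes of kinases, receptors and ligands, 3 rose and 2 fell, against the same shares. TNIK, a kinase and cofactor of Wnt signalling in the upper part, fell. TNIK levels were 71.3, 47.4 and 63.8 CPM in MX, 54.6, 54.2 and 55.5 CPM in YAP1 and 45.8, 33.4 and 35.1 CPM in YAP1-S127A libraries. MX and YAP1 overlapped, and all YAP1-S127A libraries lay below both, MX replicate 2 by the smallest margin. It changed by -0.68 (adjusted p = 0.00259). RASA2, a GTPase-activating protein for Ras, changed by 0.56 (adjusted p = 0.0131), lost without MX replicate 3 or YAP1-S127A replicate 3 (adjusted p up to 0.0773).

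Of 23 mitochondrial proteins outside the respiratory chain, encoded in the nucleus, MFN1, a mediator of outer membrane fusion, and ABHD10, a mitochondrial hydrolase, rose with YAP1-S127A, at 0.42 and 0.40 (adjusted p = 0.0126 and 0.0171). The median over the 23 was 0.23, and the share that rose was near the 9.53% of all tested genes. Both that rose are among the 14 upper genes of the list, and 25.3% of all upper genes rose. MFN1 was lost without MX replicate 3 or YAP1-S127A replicate 1 or 3, and ABHD10 without MX replicate 3 or YAP1-S127A replicate 2 or 3, with adjusted p up to 0.0657 and 0.0871. None of 18 DNA repair and checkpoint genes, 9 in each part, was called in any comparison by edgeR, DESeq2 or limma-voom. With each tool 2 of them were at an unadjusted p under 0.05 with YAP1 against MX, 2 with YAP1-S127A against MX and 0 between the constructs. Their median log2 fold change with YAP1-S127A was -0.05 in the lower and -0.01 in the upper part. The median over all upper genes was 0.18. With scaling by total counts, which lowered the log2 fold changes of the genes named here for YAP1-S127A against MX, the calls of rises given above for ARHGAP31, SSR3, ARF4, CHMP2B, NMD3, PSMD2, UBA3, PPARG, RASSF1, PRKCI, MFN1, ABHD10, LXN, PTX3 and RASA2 were lost, and none of them changed sign.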

How the data were processed

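Polyadenylated RNA of 9 Caki libraries was prepared with a stranded kit and sequenced on an Illumina instrument, per the labels' protocols. The authors deposited raw counts for each gene and library, whole numbers with no normalization. The submitters' processing notes list HISAT2, Cufflinks and Salmon 1.9.0 with the mouse build GRCm39, which does not describe the human Ensembl genes of the table. The human build, counter and strand handling were not given in the sources used here, and positions are those of the table.

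From the counts, 15492 of 58735 genes passed edgeR's filterByExpr, among them all 544 members. All 9 libraries, scaled by TMM, entered 1 fit of edgeR 4.0.16 (R 4.3.3, robust quasi-likelihood, group as the only term). Tests of the 3 contrasts were two-sided, p-values were adjusted over all tested genes after Benjamini and Hochberg, and a gene was called, or said to rise or fall, at an adjusted p under 0.05. Standard errors come from the same test. Medians by part used log2 CPM with a prior count of 2. Total counts of 15789722 to 24811150 make 3 counts worth 0.121 to 0.190 CPM, a limit that covers counting error only.

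The members, the division and the gene lists were chosen with earlier results of these data known. Genes were named by a rule: the 6 largest rises and 6 largest falls per part against MX, and 4 and 4 between the constructs, taken from called genes whose groups do not overlap and whose mean log2 CPM is 3 or more. It also took VHL, PBRM1, BAP1, SETD2, PIK3CA, RHOA and CTNNB1, up to 3 called genes of each list, and the genes next to the division and the count minimum. Others, such as IFRD2, SEC61A1, RPL29, FOXP1, NR1D2 and TM4SF1, were named after their values were seen, and not all genes the rule took are named. Some results for single genes are not reported here. Same-numbered libraries of different groups showed no clear common deviation (r from -0.18 to 0.20, over 0.1 in 1 of 9 pairs). Their median r was 0.05, against -0.02 for 18 pairs with unlike numbers. With 3 libraries a group this cannot exclude a pairing, and the main fit used none. Alternatives were RLE and total counts scaling, other filters, DESeq2 1.42.0, limma-voom (limma 3.58.1), fits of only protein-coding genes or only the groups compared, a replicate block, each library left out, other divisions, count minimums and prior counts. Leaving out mitochondrial genes, YAP1-S127A replicate 2 alone, and subsets by length and level were added after the data were seen. The fit was also run on simulated counts with changes of known size. These were drawn gene by gene without shifts between replicates, so they cannot show how the fit handles such shifts.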

Additional observations from a re-analysis of the deposited data

How the results depend on the processing

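The change of the lower minus upper difference was below 0 in all alternatives run, 26 for YAP1 against MX and 27 for each of the other comparisons. In 4 of them this was fixed by construction (RLE and total counts scaling, mitochondrial genes left out, and the replicate block), and these say nothing about its stability. Other prior counts, and leaving out a library of the group not compared, keep the compared libraries as they are and are also weak checks. Prior counts of 0.5 and 8 gave -0.149 and -0.147 for YAP1-S127A against MX. Leaving out each library in turn gave -0.11 to -0.04 for YAP1 against MX, -0.20 to -0.13 for YAP1-S127A against MX and -0.12 to -0.06 between the constructs, and restriction to genes called in no comparison gave -0.084 for YAP1-S127A against MX. In the same order, leaving out libraries gave 14 to 39, 79 to 145 and 2 to 19 members called (main values 29, 125 and 9) and 601 to 1423, 1847 to 3079 and 126 to 465 genes called (main values 1055, 2845 and 305). The lowest counts came without replicate 3 of YAP1 or YAP1-S127A and the highest without MX replicate 1. Total counts scaling gave 17 members for YAP1 against MX, 4447 genes for YAP1-S127A against MX, and 16 members and 616 genes between the constructs, where it also turned 4 values that were not called for YAP1-S127A against MX, BAP1 (-0.084), CTNNB1 (-0.23), PBRM1 (-0.27) and RHOA (-0.093). Between the constructs the members and genes called were 19 and 520 with no filter, 21 and 475 with DESeq2 and 19 and 478 with only the 2 groups compared. With the replicate block they were 20 and 472, where a pairing by replicate number is neither shown nor excluded. With YAP1-S127A replicate 2 alone, fewer samples by construction, they were 3 and 151, and against MX 44 and 1278, with PBRM1 at -0.13. The lone library is assumed to vary like the other groups. Leaving out libraries also moved uncalled values across 0, from -0.036 to 0.10 for CTNNB1 and -0.13 to 0.13 for PBRM1 with YAP1-S127A, and from -0.037 to 0.23 for PBRM1, -0.030 to 0.28 for PIK3CA and -0.039 to 0.45 for VHL with YAP1. Of 80 calls of genes taken by the naming rule, 35 held in every alternative, 45 were lost in at least 1 and 0 changed sign. Except where a setting has fewer samples, the cause of these changes was not tested. The smallest called log2 fold change of a member with YAP1-S127A against MX was 0.32.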
